A study of Homo sapiens with 8 samples.

Results

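DHRS2 and 7 related genes, DHRS1, DHRS3, DHRS4, DHRS4L2, DHRS7, DHRS9 and DHRS11, were followed by symbol through the expression tables, 8 of the 60649 genes listed there. All 8 code for members of the short-chain dehydrogenase/reductase (SDR) family. DHRS2 was selected on measured values, because its transcript level was known to differ between these groups, and the others were added as its relatives by name, so their levels and differences are given as a description, with no p-value, and nothing is drawn from the count of members that a test over all genes would call. The libraries came from HCT116, an established human colorectal cancer line, and from UF1hypo, a single HCT116 clone in which a heterozygous knockout had cut exon 4 out of 1 allele of UHRF1. Each background carried either the scrambled control hairpin shScr or the hairpin shUHRF1 against UHRF1, delivered by lentivirus and kept as puromycin-selected pools, so that every group had been transduced and selected. There were 2 libraries in each of the 4 groups, HCT116 shScr, HCT116 shUHRF1, UF1hypo shScr and UF1hypo shUHRF1, made from polyA RNA and read in pairs. UF1hypo is 1 clone, so the allele and other properties of that clone cannot be told apart. Nothing says whether the 2 libraries of a group came from separate cultures, so the errors given reflect spread between libraries that may be technical. Each error is the standard error of a fit to all 8 libraries. That fit pools a gene's variance over the groups and moderates it by that of other genes.

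SDR enzymes use NAD(H) or NADP(H) to oxidise alcohols or reduce carbonyl groups, and they share a Rossmann fold and a catalytic tyrosine. Several DHRS enzymes act on retinol and retinal, the precursors of retinoic acid, and others on steroids or small dicarbonyl compounds. DHRS2, also called HEP27, reduces dicarbonyl compounds, has been found in mitochondria and the nucleus, binds the p53 regulator MDM2, and is known to be induced when cells stop growing or are given histone deacetylase inhibitors. UHRF1 recognises hemimethylated DNA behind the replication fork and brings in the maintenance methyltransferase DNMT1. DNA methylation itself was not measured in these libraries. The paper measured it on arrays in both lines after UHRF1 knockdown and reports more extensive loss in UF1hypo.

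DHRS2 (ENSG00000100867.15) lies on the plus strand of chromosome 14 in GRCh38, at chr14:23630115-23645639. The next protein-coding genes on either side are JPH4, which ends 51.3 kb before it on the minus strand, and DHRS4, which starts 308 kb after its end. DHRS4 (chr14:23953734-23969279, plus strand) and DHRS4L2 (chr14:23969874-24006408, plus strand) stand side by side, and DHRS1 (chr14:24290598-24299780, minus strand) starts 660 kb from the start of DHRS2. DHRS7 is on the same chromosome but far away (chr14:60144119-60169856, minus strand). DHRS3 is at chr1:12567910-12618210 on the minus strand, DHRS9 at chr2:169064789-169096167 on the plus strand, and DHRS11 at chr17:36591879-36600804 on the plus strand. Among canonical coding sequences of GENCODE 44, DHRS2 was 70.7% identical to DHRS4 over 827 aligned bases and 73.1% identical to DHRS4L2 over 692, against 52.1% to DHRS1, 55.1% to DHRS3 and 54.8% to DHRS7. DHRS4 and DHRS4L2 were 97.3% identical over 696 coding bases, and 51.6% of the 50-base windows of the DHRS4 transcript occurred unchanged in DHRS4L2. Reads from those windows cannot be assigned to 1 of the pair by sequence, so the split between DHRS4 and DHRS4L2 is uncertain, whereas DHRS2 shared no such window with another member.

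The start regions are printed because UHRF1 acts through CG dinucleotides and the neighbouring relatives differ in how many they hold. Each window runs from 250 bases before a transcription start to 50 bases after it, in GRCh38, and is given 5′ to 3′ on the plus strand. Capitals mark CG in the DHRS4 window, and in the DHRS2 window, which has no CG, they mark the letters TATAAA, read on either strand. Both windows are RefSeq's.
DHRS2, RefSeq start, chr14:23629865-23630164: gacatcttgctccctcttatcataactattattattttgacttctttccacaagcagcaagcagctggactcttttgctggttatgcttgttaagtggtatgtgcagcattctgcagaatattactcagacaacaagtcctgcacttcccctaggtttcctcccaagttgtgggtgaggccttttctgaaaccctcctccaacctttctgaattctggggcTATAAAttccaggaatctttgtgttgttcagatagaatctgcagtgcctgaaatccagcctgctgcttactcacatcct
DHRS4, RefSeq start, chr14:23953520-23953819: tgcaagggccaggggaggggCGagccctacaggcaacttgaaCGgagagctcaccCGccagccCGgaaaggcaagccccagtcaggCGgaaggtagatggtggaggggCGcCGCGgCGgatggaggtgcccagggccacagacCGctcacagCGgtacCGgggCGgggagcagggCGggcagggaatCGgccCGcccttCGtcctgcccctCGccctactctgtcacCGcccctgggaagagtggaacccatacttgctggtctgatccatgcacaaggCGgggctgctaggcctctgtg

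The RefSeq window of DHRS2 held 0 CG, as did 3.96% of the 35116 windows of the same length in the RefSeq table for GRCh38.p14, whose median was 14. Its TATAAA begins 29 bases before the start, and 11.5% of all windows held these letters on either strand. The DHRS4 window held 20 CG. The other members in the table held 21 to 37 CG at the starts listed for DHRS4L2, 27 and 31 for DHRS1, 36 for DHRS11, 5 to 31 for DHRS3 and 0 to 4 for DHRS9. DHRS7 had no entry. Which transcription start of DHRS2 the reads came from was not analysed here.

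The UHRF1 transcript was checked against the labels first. Levels are given as TPM, a share of all transcripts scaled for transcript length and library total. In HCT116, UHRF1 stood at 87.5 and 98.4 TPM with shScr against 31.7 and 32.7 with shUHRF1. In UF1hypo it stood at 47.3 and 50.6 TPM against 34.1 and 21.1. The libraries with shUHRF1 were below the shScr libraries of the same background in both lines, and the 2 shUHRF1 groups overlapped each other in UHRF1 transcript. UHRF1 protein was not measured in these libraries, so this overlap says nothing of the protein left. The paper blotted UHRF1 in both lines with stable knockdown and describes a further, sharp fall of the protein remaining in UF1hypo. The epithelial markers EPCAM, KRT8, KRT18, KRT19 and CDH1 were present in all 8 libraries, CDH1 lowest at 35.4 to 112 TPM, whereas VIL1 did not pass 0.142 TPM. PTPRC, CD3E, COL1A2 and DCN stayed at or under 0.211 TPM, and COL1A1 ranged from 21.1 to 65.5. The files give no read counts, so sequencing depth is unknown and no counting interval can be given. The 2 UF1hypo shUHRF1 libraries stood apart from each other: replicate 2 minus replicate 1 fell with the GC content of the transcript (Spearman rho -0.81 across 13781 genes, which are not independent replicates), against 0.51 in UF1hypo shScr and 0.04 and 0.07 in the HCT116 groups.

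DHRS2 was lowest in HCT116 shScr, intermediate where either the hairpin or the clone was present alone, and highest in UF1hypo shUHRF1. In HCT116 its level was 9.76 and 9.53 TPM with shScr and 16.2 and 16.2 with shUHRF1. In UF1hypo it was 33.4 and 38.0 TPM with shScr and 951 and 748 with shUHRF1. In bulk RNA, more cells with the transcript and more transcript per cell cannot be told apart. No 2 groups overlapped, but their order was not the reverse of that of UHRF1 transcript: UF1hypo shScr had more of both transcripts than HCT116 shUHRF1, with mean UHRF1 at 48.9 against 32.2 TPM and mean DHRS2 at 35.7 against 16.2. Whether some UHRF1 transcript in UF1hypo came from the allele without exon 4 was not analysed. The paper's blots showed reduced UHRF1 protein in the clone, so the order of the protein may differ from that of the transcript. The mean with shUHRF1 was 1.68-fold that with shScr in HCT116 and 23.8-fold in UF1hypo. With shScr alone the clone was 3.70-fold above HCT116, and with shUHRF1 it was 52.3-fold above. The read depth per base went the same way, from 5.38 and 6.15 in HCT116 shScr to 12.6 and 8.44, then 26.6 and 26.7, then 834 and 604. Ranked among 19942 protein-coding genes by TPM, DHRS2 was 8950 and 8921 in HCT116 shScr and 124 and 142 in UF1hypo shUHRF1, counted from the highest.

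**Figure D1:**
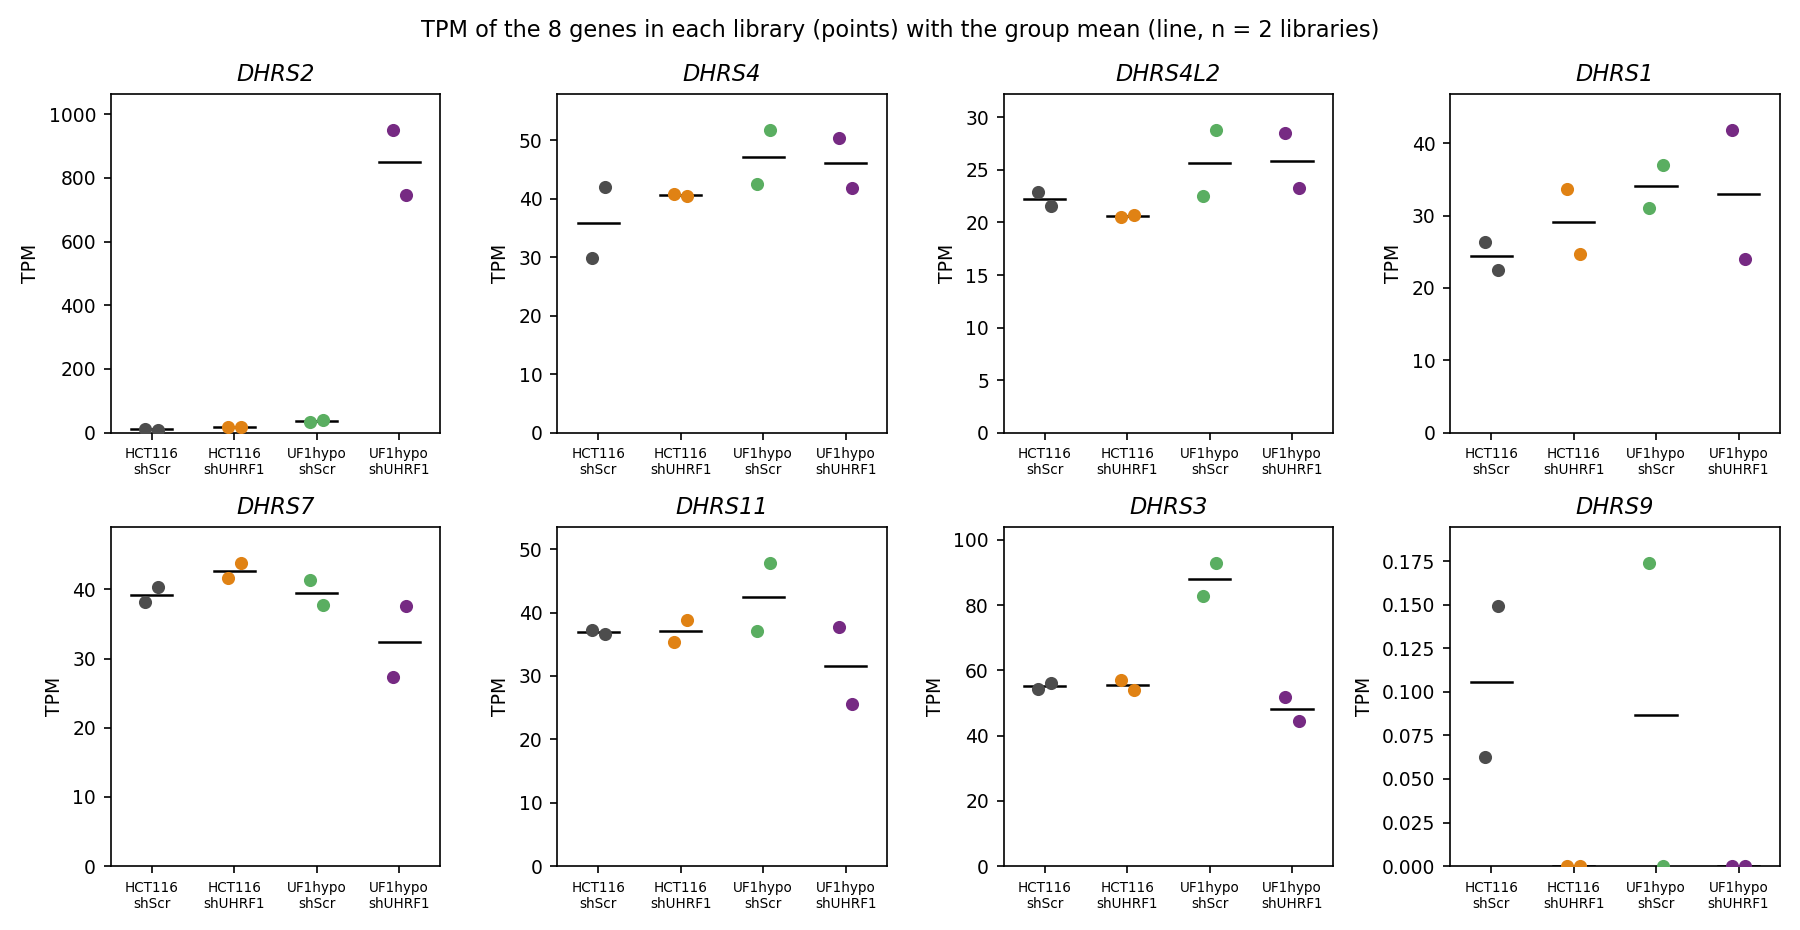
TPM of the 8 genes in each of the 8 libraries (points) and the mean of the 2 libraries of a group (line), with a separate linear axis from 0 for each gene. DHRS2 rises to 951 and 748 TPM in UF1hypo shUHRF1, DHRS3 is highest in UF1hypo shScr at 82.9 and 92.8, and DHRS9 does not pass 0.174.

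On the log2(TPM + 1) scale, the DHRS2 difference with shUHRF1 was 0.70 ± 0.17 (SE, 2 libraries against 2, variance pooled over all 8 libraries) in HCT116 and 4.53 ± 0.17 in UF1hypo. With only the libraries of the comparison in the fit, these errors were 0.14 in HCT116 and 0.22 in UF1hypo. The knockdown difference in UF1hypo exceeded that in HCT116 by 3.83 ± 0.24, and UF1hypo shScr exceeded HCT116 shScr by 1.78 ± 0.17. Ordered from the largest increase, DHRS2 was 218 of 12704 genes tested for the knockdown in HCT116, 27 of 13620 in UF1hypo, 36 of 13781 for the difference between the 2 knockdowns and 117 of 12856 for the clone. A gene was called when limma's Benjamini-Hochberg adjusted p was below 0.05 and the log2 difference was above 1 in size. Of the 7 members tested, 0 were called for the knockdown in HCT116, where 0.0787% of all genes tested were called, and 1 member had an unadjusted p below 0.05, as did 836 of all 12704 genes. In each of the other comparisons DHRS2 was the 1 member called, where 8.53% of all genes were called for the knockdown in UF1hypo, 5.09% for the difference between the knockdowns and 3.54% for the clone. Nothing is read from these counts, since DHRS2 was selected on the same contrasts.

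**Figure D2:**
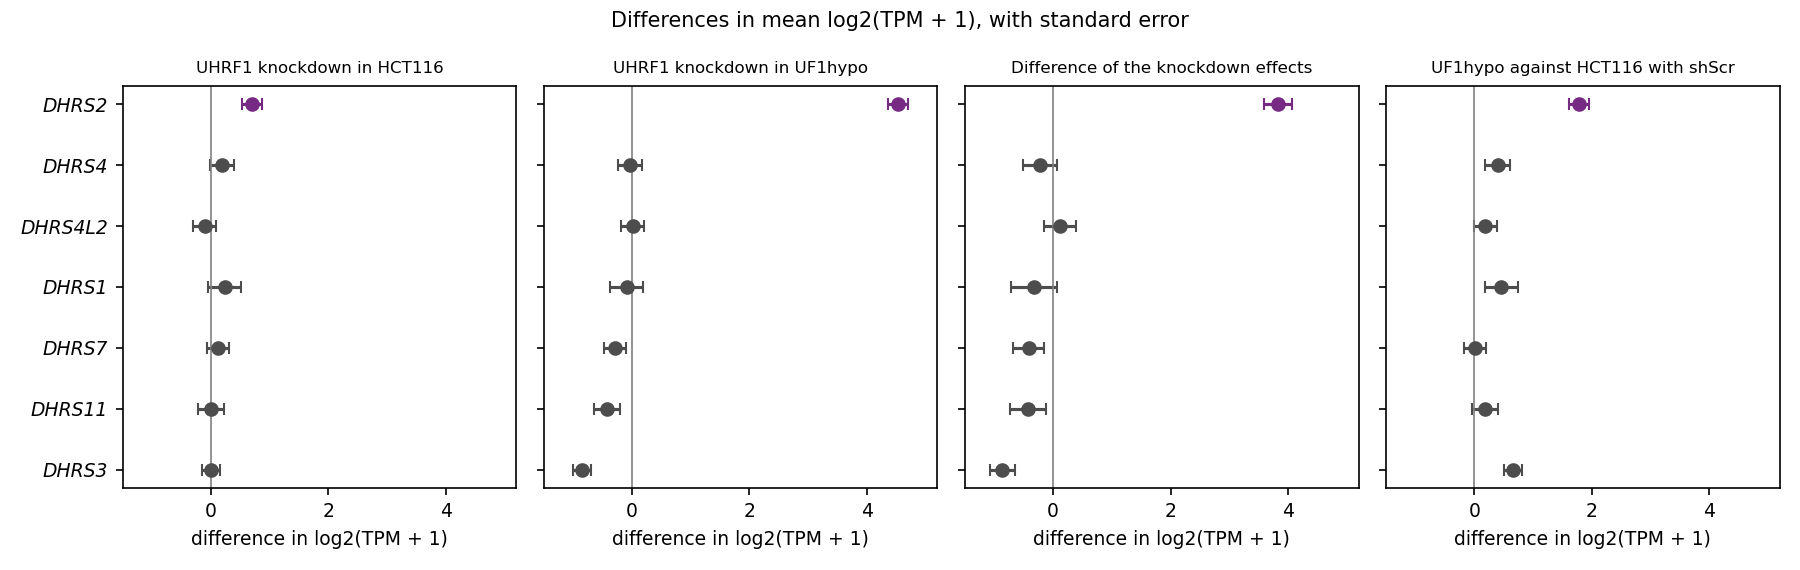
Difference in mean log2(TPM + 1) (horizontal axis, log2 units) for the 7 members above 1 TPM, with the standard error from limma as bars, in the 4 comparisons. DHRS2 (purple) lies at 0.70, 4.53, 3.83 and 1.78, while the other members lie between -0.86 and 0.66.

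The 2 closest relatives of DHRS2 did not follow it. DHRS4, a peroxisomal carbonyl and retinal reductase, stood in HCT116 at 29.9 and 42.0 TPM with shScr and 40.8 and 40.5 with shUHRF1, and in UF1hypo at 42.5 and 51.8, then 50.4 and 41.9. With shScr the clone was above HCT116 by 0.40 ± 0.21 on the log2(TPM + 1) scale, and with shUHRF1 its mean was 1.13-fold that of HCT116. The lines did not overlap in either case, but their nearest libraries stood at 42.0 and 42.5 TPM with shScr and 40.8 and 41.9 with shUHRF1. With 2 libraries in a group, lack of overlap is only a weak sign of a difference. The knockdown differences of DHRS4 were 0.19 ± 0.21 in HCT116 and -0.03 ± 0.21 in UF1hypo, no larger than their standard errors. DHRS4L2, the near-copy beside it, stood in HCT116 at 22.9 and 21.6 TPM with shScr and 20.5 and 20.7 with shUHRF1, and in UF1hypo at 22.5 and 28.8, then 28.5 and 23.3. The groups overlapped for the knockdown in UF1hypo and between the lines with shScr. They were apart for the knockdown in HCT116, by -0.11 ± 0.19, a size under its standard error. They were also apart between the lines with shUHRF1, where the mean in the clone was 1.26-fold that in HCT116. The shared windows can shift reads between the pair, but neither the level of DHRS4 nor that of DHRS4L2 passed 51.8 TPM in any library. DHRS4-AS1, an RNA transcribed antisense to DHRS4, ranged from 11.4 to 19.3 TPM, and since the sources do not state whether counting used strand, reads from this overlap cannot be told apart.

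The ratio of DHRS2 to these neighbours shows the same within single libraries, where scaling between libraries plays no part. DHRS2 over DHRS4 was 0.327 and 0.227 in HCT116 shScr and 0.398 and 0.401 in HCT116 shUHRF1. In UF1hypo it was 0.785 and 0.733 with shScr and 18.9 and 17.9 with shUHRF1. DHRS2 over DHRS4L2 went from 0.425 and 0.442 through 0.792 and 0.785, then 1.48 and 1.32, to 33.4 and 32.1. In both HCT116 groups DHRS2 was thus the lowest of the 3 genes in TPM, and in UF1hypo shUHRF1 the highest.

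DHRS3, which reduces retinal to retinol and so limits retinoic acid formation, had a pattern of its own. Its HCT116 libraries held 54.2 and 56.1 TPM with shScr and 57.0 and 54.1 with shUHRF1, and its UF1hypo libraries 82.9 and 92.8, then 52.0 and 44.6. The clone with shScr was above all other libraries, and the clone with shUHRF1 was below both of its shScr libraries. The mean in UF1hypo shScr was 1.59-fold that in HCT116 shScr, a difference of 0.66 ± 0.15 on the log2(TPM + 1) scale. With shUHRF1 in the clone DHRS3 lay 0.85 ± 0.15 below shScr on that scale, whereas in HCT116 its difference was 0.01 ± 0.15. The difference between the 2 knockdowns was -0.86 ± 0.22 for DHRS3, opposite in sign to that of DHRS2. When each library was corrected for transcript GC content and length, the DHRS3 differences became -1.01 for the knockdown in UF1hypo and -1.03 for the difference between the knockdowns.

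In UF1hypo, the differences of DHRS1, DHRS7 and DHRS11 with shUHRF1 were smaller than that of DHRS3, at -0.09 ± 0.28, -0.29 ± 0.19 and -0.42 ± 0.22 on the log2(TPM + 1) scale. DHRS1, an endoplasmic reticulum enzyme active on steroids and xenobiotics, ranged from 22.5 to 41.9 TPM, and the 2 UF1hypo shUHRF1 libraries, at 41.9 and 24.1, were themselves the farthest apart. Its libraries overlapped in both knockdowns, and the clone with shScr was higher than HCT116 by 0.46 ± 0.28 on the log2(TPM + 1) scale. DHRS7, an endoplasmic reticulum reductase of steroids and retinal, was at 27.3 and 37.6 TPM in UF1hypo shUHRF1 and between 37.8 and 43.8 in the other 6 libraries. DHRS11, which reduces keto groups on steroids, was at 37.7 and 25.6 TPM in UF1hypo shUHRF1 and between 35.4 and 47.8 elsewhere, and its groups overlapped in all 3 pairwise comparisons. The gaps between the 2 UF1hypo shUHRF1 libraries (replicate 2 minus replicate 1, log2(TPM + 1)) were -0.77 for DHRS1 and -0.54 for DHRS11, whose transcripts hold 55.2% and 57.7% GC, and 0.45 for DHRS7 at 43.5% GC. They were -0.26 for DHRS4 at 56.8% GC, -0.28 for DHRS4L2 at 56.6%, -0.22 for DHRS3 at 55.3% and -0.35 for DHRS2 at 54.2%, so members of like GC differed in their gaps. After the GC and length correction the DHRS2 difference with shUHRF1 in UF1hypo was 4.38.

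DHRS9, a retinol dehydrogenase that also acts on hydroxysteroids, was listed at 0 in 5 of the 8 libraries. It stood at 0.0624 and 0.149 TPM in HCT116 shScr and at 0.174 in 1 UF1hypo shScr library. Because no library passed 1 TPM, DHRS9 was not tested, and no fold is given.

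The share of other SDR genes called was near the share over all genes. From a list of 60 related genes, named by family, limma's test (Benjamini-Hochberg over all genes tested) called 0 of 47 for the knockdown in HCT116 (3 had an unadjusted p below 0.05), 2 higher and 1 lower of 49 in UF1hypo, 1 higher and 1 lower of 49 for the difference between the knockdowns, and 2 higher of 47 for the clone. Over all genes tested, 0.0787%, 8.53%, 5.09% and 3.54% were called in these comparisons. The medians of the list, -0.05, -0.12, 0.03 and 0.02 on the log2(TPM + 1) scale, stood beside -0.03, 0.04, 0.08 and -0.05 over all genes tested. HSD17B1, which reduces estrone to estradiol, went from 1.22 and 2.12 TPM in HCT116 shScr to 11.3 and 12.3 in UF1hypo shScr (2.28 ± 0.33, adjusted p = 0.0060) and to 41.1 and 21.0 in UF1hypo shUHRF1 (1.25 ± 0.33, adjusted p = 0.039). The call for the clone was lost without HCT116 shScr replicate 1 or either UF1hypo shScr library, with an adjusted p up to 0.074, and the call for the knockdown held in 3 of 17 alternatives, among which its adjusted p ran from 0.0043 to 0.21. DECR2, the peroxisomal 2,4-dienoyl-CoA reductase, was at 89.3 and 58.8 TPM in UF1hypo shUHRF1 against 30.4 and 25.9 with shScr (1.34 ± 0.22, adjusted p = 0.0054), a call lost without UF1hypo shScr replicate 2 and with only the 4 UF1hypo libraries, where its adjusted p ran up to 0.059.

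HSD3B7, an enzyme of bile acid synthesis from cholesterol, was, like DHRS3, highest in UF1hypo shScr. Its HCT116 libraries held 13.2 and 11.9 TPM with shScr and 13.4 and 14.03 with shUHRF1, and its UF1hypo libraries 29.4 and 30.3, then 14.3 and 13.9. The clone was higher by 1.18 ± 0.17 (limma adjusted p = 0.0062), and its difference with shUHRF1 in the clone was -1.03 ± 0.17 (adjusted p = 0.0056). The call for the clone was lost with the GC and length correction, where the difference became 0.98, and without any 1 of the 4 shScr libraries, and the call for the knockdown without either UF1hypo shScr library and with only the 4 UF1hypo libraries. The adjusted p ran up to 0.098 and 0.072 over the alternatives.

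Among 29 genes of retinoid handling, of which RDH10, RDH11, RDH12 and RDH14 are also in the SDR list, limma called 0 of 15 for the knockdown in HCT116 (1 had an unadjusted p below 0.05), 2 of 21 in UF1hypo, 2 of 21 for the difference between the knockdowns and 3 of 18 for the clone, all higher, beside 8.53%, 5.09% and 3.54% of all genes in the last 3. The medians of the list were -0.06, -0.02, 0.04 and 0.34 on the log2(TPM + 1) scale. CYP26A1, which breaks down retinoic acid and is a known retinoic acid target, did not pass 0.975 TPM in any of the 6 libraries outside UF1hypo shUHRF1, where it stood at 5.98 and 6.88. It entered the test only through the group where it was high, so its call is no support for a difference and no p is given. PLAAT4, a phospholipase and acyltransferase also known as a retinoid-inducible gene, was listed at 0 in both HCT116 shScr libraries and reached 0.357 and 1.25 TPM in the clone with shScr and 5.70 and 11.1 with shUHRF1 (2.37 ± 0.33 between these, adjusted p = 0.0026). The PLAAT4 call held in 17 of 17 alternatives. In the clone with shScr, STRA6, the receptor that takes up retinol, was at 6.56 and 4.65 TPM against 0.462 and 0.169 in HCT116, and it too entered that test only through the higher group. CRABP2, which carries retinoic acid to the nucleus, was at 614 and 648 against 244 and 286 TPM (1.25 ± 0.15, adjusted p = 0.0033), and BCO2, a carotenoid-cleaving enzyme, at 9.70 and 7.94 against 1.22 and 2.43 (1.83 ± 0.34, adjusted p = 0.020). The CRABP2 call was lost without HCT116 shScr replicate 1 or UF1hypo shScr replicate 2, and the BCO2 call without the TPM filter and without any 1 of 6 libraries, those outside UF1hypo shUHRF1.

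Around DHRS2 on chromosome 14, the share of genes called for the knockdown in UF1hypo was near that over all genes. For the clone it was above that share, on few genes and with counts that varied over the alternatives. For the difference between the knockdowns the calls included RIPK3, EFS and JPH4, which passed the filter only through UF1hypo shUHRF1. Nothing is therefore read from the share for that comparison. Of 78 protein-coding genes starting within 1 Mb of its start, with members left out, limma called 0 of 53 for the knockdown in HCT116 (5 had an unadjusted p below 0.05), 6 of 60 in UF1hypo, all higher, 5 higher and 1 lower of 60 for the difference between the knockdowns, and 5 higher and 1 lower of 54 for the clone, beside 8.53%, 5.09% and 3.54% of all genes in the last 3. The medians of the list were -0.04, 0.17, 0.18 and 0.24 on the log2(TPM + 1) scale, beside -0.03, 0.04, 0.08 and -0.05 over all genes. IRF9, a subunit of the interferon-activated factor ISGF3, starts 531 kb from DHRS2 and went from 3.46 and 4.07 TPM in HCT116 shScr to 30.9 and 32.5 in UF1hypo shScr (2.78 ± 0.18, adjusted p = 0.00013) and to 109 and 106 in UF1hypo shUHRF1 (1.73 ± 0.18, adjusted p = 0.00054). JPH4, a junctophilin that holds the endoplasmic reticulum near the plasma membrane and the nearest gene before DHRS2, was at 1.58 and 1.38 TPM in UF1hypo shUHRF1 and listed at 0 or at most 0.0661 in the other libraries. RIPK3, a kinase of necroptosis, was at 2.48 and 1.85 TPM in UF1hypo shUHRF1 and listed at 0 in all 6 others, and EFS, an adaptor of Src-family kinases, was at 2.58 and 1.75 and elsewhere at most 0.0280. These 3 genes make up 3 of the 6 calls for the knockdown in UF1hypo and were also called for the difference between the knockdowns. They passed the filter only through UF1hypo shUHRF1, so they could enter the test only where they were raised and no p is given for them. Both IRF9 calls held in 17 of 17 alternatives.

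AJUBA, a LIM protein of cell junctions, ranged from 25.9 to 32.0 TPM in HCT116 and reached 60.2 and 57.0 TPM in UF1hypo shUHRF1 against 23.5 and 28.6 with shScr (1.15 ± 0.18, limma adjusted p = 0.0044), a call lost without UF1hypo shScr replicate 1 and with only the 4 UF1hypo libraries, where its adjusted p ran up to 0.062. THTPA, thiamine triphosphatase, was at 16.3 and 9.69 against 4.49 and 5.37 TPM (1.201 ± 0.30, adjusted p = 0.035), a call that held in 5 of 17 alternatives, among which its adjusted p ran from 0.0083 to 0.21. In the clone with shScr, PSME1, a subunit of the proteasome activator, was at 345 and 356 TPM against 131 and 145 in HCT116 (1.34 ± 0.13, adjusted p = 0.00086). REC8, a meiotic cohesin subunit, was higher by 1.70 ± 0.31 (adjusted p = 0.018), the readthrough gene BCL2L2-PABPN1 by 2.08 ± 0.42 (adjusted p = 0.028) and the gene listed as ENSG00000259529 by 1.27 ± 0.18 (adjusted p = 0.0060). ENSG00000259529 is annotated as a readthrough gene that reaches from RNF31 into IRF9, so the levels of both readthrough genes and of the genes they overlap are uncertain. PCK2, the mitochondrial phosphoenolpyruvate carboxykinase, was lower in the clone by -1.10 ± 0.21 (adjusted p = 0.021). The PSME1 call held in 17 of 17 alternatives, and those for REC8, BCL2L2-PABPN1, ENSG00000259529 and PCK2 were lost without any 1 of the 4 shScr libraries. Those for REC8, BCL2L2-PABPN1 and PCK2 were also lost without the TPM filter, and that for PCK2 without either HCT116 shUHRF1 library.

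**Figure D3:**
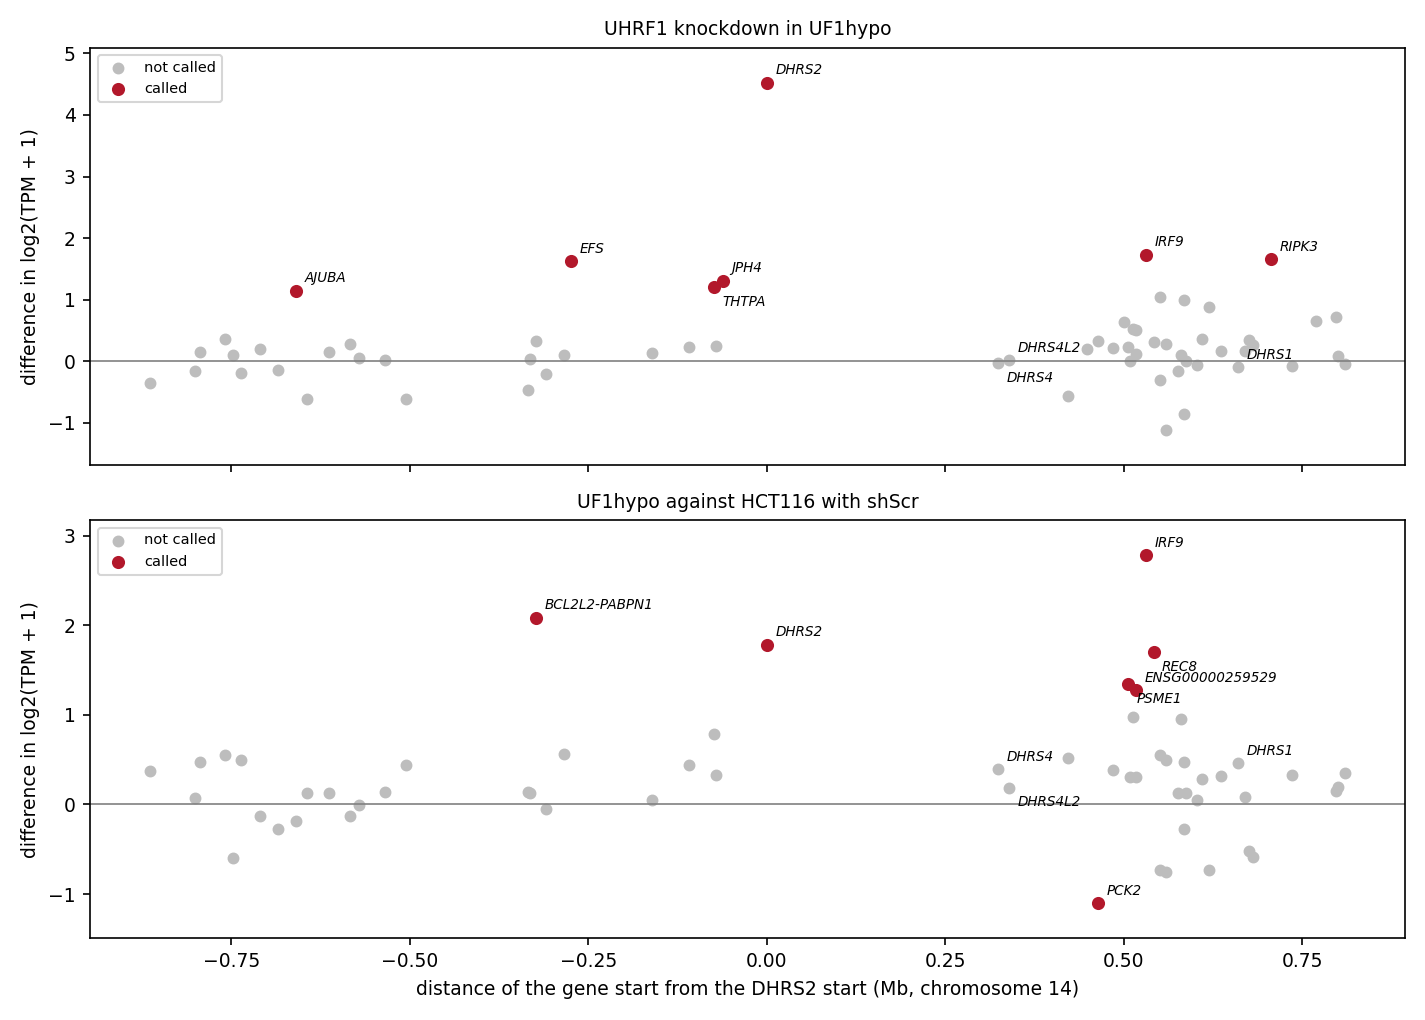
Difference in log2(TPM + 1) (vertical axis) of each protein-coding gene tested within 1 Mb of the DHRS2 start against the distance of its own start (horizontal axis, Mb), for the knockdown in UF1hypo (top) and for UF1hypo against HCT116 with shScr (bottom), with called genes in red. DHRS2 stands at 4.53 in the top panel, with DHRS4 and DHRS4L2 at -0.03 and 0.01, and in the bottom panel IRF9 lies above DHRS2, at 2.78 against 1.78.

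The protein-coding genes whose pattern was most like that of DHRS2, by Pearson r of log2(TPM + 1) over the 8 libraries, were LY6K (0.998), RAB34 (0.997), TRANK1 (0.997), MYBPH (0.997) and KLK11 (0.997). None of them is a relative of DHRS2 or lies on chromosome 14. RAB34, a small GTPase, went from 0.636 and 0.675 TPM in HCT116 shScr to 88.1 and 65.9 in UF1hypo shUHRF1, and LY6K, a cell surface protein of the LY6 family, from 2.52 and 2.59 to 41.6 and 34.2. TRANK1 reached 27.2 and 24.0 TPM in UF1hypo shUHRF1, and MYBPH and KLK11, a muscle myosin-binding protein and a kallikrein protease, reached 11.4 and 9.98 and 11.4 and 10.03. Such an r is common here, since 646 of 13780 genes passed 0.95, all points share the same libraries, and the UF1hypo shUHRF1 pair carries most of the range. Over the same libraries r to DHRS2 was 0.56 for DHRS4L2, 0.50 for DHRS4, 0.37 for DHRS1, -0.32 for DHRS3, -0.46 for DHRS11 and -0.74 for DHRS7.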

How the data were processed

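RNA was measured in 8 libraries, 4 groups of 2, grouped by the GEO labels. Reads were trimmed with fastp, aligned to GRCh38 with HISAT2 2.0.4 and quantified with StringTie 2.1.4 by the authors, who deposited TPM and FPKM per gene together with per-base coverage, and no read counts. TPM was used as deposited, summing repeated records of a gene, and FPKM only as an alternative. Deposited coverage is given for DHRS2. Genes were kept if protein-coding in GENCODE 44 and above 1 TPM in at least 1 library of the comparison. log2(TPM + 1) was fitted with limma 3.58.1 (R 4.3.3) on group with a variance trend over all 8 libraries (4 residual degrees of freedom), with Benjamini-Hochberg adjustment over all genes tested. A gene was called at adjusted p below 0.05 and an absolute log2 difference above 1. The fit was run on simulated data with independent noise, which checked only that it called genes given a fixed shift. That simulation did not include the GC-linked gap between replicates. The count-based test named in the study's methods needs counts and was not run. The members and lists were chosen with earlier results of these data known. Genes named are all members, UHRF1, called list genes (at most 8 per list and comparison), the 5 genes most like DHRS2 and those adjoining it; marker genes were checked too. Coding sequences from GENCODE were aligned with Biopython 1.88, in place of the planned protein comparison. Alternatives were another pseudocount, no filter, fewer libraries, FPKM, 2 scalings, the largest record, a GC and length correction, a replicate block and each library left out. The level of 1 marker gene and 1 sequence window are not reported here.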

Additional observations from a re-analysis of the deposited data

Results flagged for a closer look

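These genes of the 3 lists had a difference between the 2 knockdowns (UF1hypo minus HCT116, on the log2(TPM + 1) scale) with a limma adjusted p below 0.05. In the SDR list it was 1.38 ± 0.31 (SE) for DECR2 and -1.15 ± 0.24 for HSD3B7. In the retinoid list it was 2.39 ± 0.39 for CYP26A1, 2.28 ± 0.47 for PLAAT4 and -0.93 ± 0.22 for CRABP2, the last under the size asked of a call. Near DHRS2 it was 1.66 ± 0.27 for RIPK3, 1.63 ± 0.29 for EFS, 1.33 ± 0.25 for IRF9, 1.30 ± 0.26 for JPH4, 1.19 ± 0.26 for AJUBA and -1.40 ± 0.31 for MDP1, a magnesium-dependent phosphatase. The readthrough gene NEDD8-MDP1 differed by 0.99 with shUHRF1 in UF1hypo, against -0.86 for MDP1, and neither was called there. The split of reads between NEDD8-MDP1 and MDP1 is uncertain. RIPK3, EFS and JPH4 were listed at 0 or near it in the 6 libraries outside UF1hypo shUHRF1, so their size depends on the pseudocount. These 3 and CYP26A1 passed the filter only through UF1hypo shUHRF1 and could be tested only where they were raised. Their adjusted p is therefore no support for a difference.

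Among the others the adjusted p ran from 0.022 for IRF9 to 0.046 for CRABP2. PLAAT4 was listed at 0 or at most 0.130 TPM in the HCT116 libraries, so the size of its difference also depends on the pseudocount. Its call was lost with the pseudocount of 0.1 and without the TPM filter. Each call was lost in some alternatives, and that of DECR2 held in 5 of 16.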

How the results depend on the processing

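Across the members' differences and the list counts, 655 of 741 alternative values stayed close to the main one, 86 moved and 0 reversed a call. Of the 389 that kept every library, 34 moved. These tallies overstate stability, since many of the members' differences could not change. Dropping the filter, fitting only the libraries of the contrast, adding a replicate block or leaving out a library outside the contrast alters only errors and calls. The DHRS2 difference for the knockdown in HCT116 was 0.75 with a pseudocount of 0.1, 0.62 with FPKM, 0.74 with median-ratio scaling and 0.73 with quantile normalization, and for the clone 1.68 with FPKM and 1.69 with the GC and length correction, which gave 3.69 for the difference between the knockdowns. That correction called 2 members, DHRS2 and DHRS3, for the knockdown in UF1hypo and for the difference between the knockdowns, and 1 related SDR gene for the clone; over all genes it called 1111 for the knockdown in UF1hypo and 1046 for the difference. Nothing is read from the members called, since DHRS2 was selected on these contrasts. For the knockdown in UF1hypo, 0 related SDR genes were called with only the libraries of that contrast and 2 neighbours with FPKM. For the difference between the knockdowns, 1 related SDR gene was called with the pseudocount of 0.1, without the filter and with each scaling, 0 retinoid genes with that pseudocount and 1 without the filter, and 3 neighbours with FPKM and with quantile normalization. Without the filter 3 neighbours were called for the clone. The cause was not tested.

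Leaving out 1 library in turn gave a DHRS2 difference of 0.68 to 0.71 for the knockdown in HCT116, 4.35 to 4.70 in UF1hypo, 3.66 to 4.005 for the difference between them and 1.69 to 1.87 for the clone. A lone library left in a group was assumed to vary like the other groups. The calls for the 3 lists in HCT116 stayed at 0. In UF1hypo they ran from 0 to 7 for related SDR genes, 2 to 5 for retinoid genes and 4 to 7 for neighbours, for the difference between the knockdowns from 0 to 8, 0 to 6 and 0 to 10, and for the clone from 0 to 2, 1 to 3 and 2 to 6. Each highest count of the first 2 came without UF1hypo shUHRF1 replicate 2. Without that library 2252 genes in all were called in UF1hypo and 2142 for the difference, against 1162 and 702. Over all genes, the knockdown in HCT116 called 10, and 0 without the filter, 3 with median-ratio scaling, 28 with the pseudocount of 0.1, 76 with the GC and length correction and 89 with only its own libraries. The knockdown in UF1hypo called 563 with only its own libraries and 748 with FPKM, and the difference called 448 with the pseudocount of 0.1.

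The labels number the libraries of each group 1 and 2, but same-numbered libraries did not deviate together (r from -0.40 to 0.055 between groups), so the numbers were not used to pair them. With the replicate number as a block, the DHRS2 differences stayed at 0.70, 4.53, 3.83 and 1.78. They could not change, because every group holds both replicate numbers, and only errors and calls can move. For the difference between the knockdowns 0 related SDR genes and 2 neighbours were called with the block. Over all genes the block gave 1 call for the knockdown in HCT116. In a pairing chosen after seeing the data, with the UF1hypo shUHRF1 numbers crossed, 1 member, 3 related SDR genes, 2 retinoid genes and 6 neighbours were called in UF1hypo, and 1207 genes in all.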
